A study of Mus musculus with 32 samples.

Results

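The mouse *Serpina3* genes form a tandem cluster of serine protease inhibitors, and 6 of them, *Serpina3f*, *Serpina3g*, *Serpina3h*, *Serpina3i*, *Serpina3m* and *Serpina3n*, are described here, of 29511 genes in the count table. They were chosen by name because the change of *Serpina3g* was among the strongest in tumors, so the comparison of tumors between host genotypes entered the choice and its values for these genes are given as a description, without a test. RNA from whole tissue was sequenced from 32 samples. Primary mammary tumors, taken 14 days after the graft, came from constitutive *Clic4* knockout (KO) hosts (n = 6) and from wildtype (WT) hosts (n = 6). Pre-metastatic lungs were taken 14 days after the graft (6 KO and 6 WT), and control lungs came from mice at baseline, without a tumor (4 KO and 4 WT). All hosts were virgin young adult females of the FVB/N strain, with KO and WT littermates bred from heterozygous parents. The grafted cells were 6DT1, a single line from a mammary tumor driven by a *Myc* transgene and injected into the fat pad; they carry intact *Clic4* in both kinds of host, so the KO tumors are KO only in their host cells.

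Serpins are suicide inhibitors: an exposed loop is cut by the target protease, the serpin then changes shape and traps the enzyme in a covalent complex. The human genome has 1 *SERPINA3* gene, an acute-phase antichymotrypsin made mainly by the liver, whereas in mouse the locus was expanded into a series of neighbouring copies that differ in the reactive loop and in where they are expressed. *Serpina3g* (also known as Spi2A) lacks a secretion signal, acts inside lymphoid and myeloid cells and can inhibit lysosomal cysteine cathepsins. *Serpina3n* is secreted, responds to inflammation and glucocorticoids, and inhibits leukocyte elastase and granzyme B. *Serpina3f* is a close relative of *Serpina3g*, *Serpina3h* is annotated as a transcribed unprocessed pseudogene, and the roles of *Serpina3i* and *Serpina3m* are less well known.

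The 6 genes lie on the forward strand of chromosome 12 within 199.8 kb (GRCm38, GENCODE annotation). *Serpina3f* occupies chr12:104214544-104221129, *Serpina3g* chr12:104236245-104241939, *Serpina3h* chr12:104247905-104253669 and *Serpina3i* chr12:104263122-104269372. *Serpina3m*, at chr12:104338486-104394257, has the same annotated start as *Serpina3k* and overlaps it, and *Serpina3n*, at chr12:104406729-104414329, ends the row. The promoters are shown as a description, and their part in the levels of these genes was not tested. RefSeq promoter windows of 300 bases (250 before to 50 after the start, GRCm38.p6) were at hand for *Serpina3f*, *Serpina3g*, *Serpina3i* and *Serpina3n*, that is 4 of the 6 genes. The window of *Serpina3g* (chr12:104235897-104236196, forward strand) reads as follows, with a match to TTCNNNGAA, the letters bound by STAT dimers, in capitals.
Serpina3g promoter: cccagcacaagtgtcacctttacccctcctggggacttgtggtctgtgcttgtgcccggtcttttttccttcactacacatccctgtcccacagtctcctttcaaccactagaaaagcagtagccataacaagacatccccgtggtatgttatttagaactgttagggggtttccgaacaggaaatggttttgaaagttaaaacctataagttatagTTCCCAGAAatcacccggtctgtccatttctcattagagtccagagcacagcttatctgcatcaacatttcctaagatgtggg
The 39 bases around those letters align in the 4 windows, with the same 9 positions in capitals.
Serpina3g: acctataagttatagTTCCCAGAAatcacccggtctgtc
Serpina3i: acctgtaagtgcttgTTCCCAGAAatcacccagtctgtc
Serpina3f: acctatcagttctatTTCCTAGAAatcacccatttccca
Serpina3n: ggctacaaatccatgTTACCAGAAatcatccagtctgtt

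The stretch of *Serpina3i* differed from that of *Serpina3g* at 5 of 39 positions, that of *Serpina3f* at 11 and that of *Serpina3n* at 12. Counted from the first of the 9 capital letters and against *Serpina3g*, *Serpina3f* carries C5T and still holds the TTCNNNGAA letters, *Serpina3i* carries no change, and *Serpina3n* carries C3A and does not hold them. The first of these letters lies 33 bases before the RefSeq start in *Serpina3g*, 102 before it in *Serpina3i* and 121 before the first of 2 RefSeq starts of *Serpina3f*. The *Serpina3g* window ends at 104236196, before the GENCODE start of that gene at 104236245. The windows of *Serpina3i* and *Serpina3f* take in their GENCODE starts, so the distances are not counted from like starts. The TTCNNNGAA letters, which read the same on both strands, are in 8.3% of 32851 promoter windows of this length. An interferon-stimulated response element, searched as a pair of GAAA letters spaced by 2 bases, is on neither strand in any of the 4 windows and is in 3.44% of all. A match of letters is a description, not a measured site.

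Library totals ran from 4446323 to 8318711 counts (median 5384934). *Clic4* was at 55.4 to 74.6 FPKM in the 10 KO lungs and at 154.6 to 229.7 FPKM in the 10 WT lungs, and in tumors at 58.9 to 69.0 FPKM in KO and 74.7 to 82.2 FPKM in WT hosts, so every lung fell on the side of its label. FPKM (fragments per kilobase of transcript, scaled to library size) is a level per length, by which genes can be compared. The lung epithelial markers (*Sftpc*, *Sftpb*, *Scgb1a1*, *Ager*, *Foxj1*) summed to 30587 to 36821 FPKM in the lungs and to at most 2.97 FPKM in any tumor, and the liver markers (*Alb*, *Apoa1*, *Ttr*, *Fga*) to at most 1.68 FPKM in any sample. The control lung of KO replicate 4 was lower than the other 3 of its group for every one of the 6 genes, and the 14-day lung of WT replicate 6 was the highest of its group for 5 of them. Some, not all, of the values that moved when these lungs were left out are given beside the results.

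In tumors the cluster was higher in KO hosts, most of all its members *Serpina3g* and *Serpina3f*. *Serpina3g* was at 25.91, 32.5 and 37.73 FPKM (lowest, median and highest) in the KO hosts and at 2.20, 4.63 and 9.93 FPKM in the WT hosts. All 6 KO tumors lay above all 6 WT tumors, with means of 32.5 ± 4.76 and 5.00 ± 2.84 FPKM (SD, n = 6 each). The fitted log2 fold-change was 2.60 (SE 0.23), a 6.07-fold higher level. *Serpina3g* ranked 3 of 13830 genes by the evidence for a change, which is what chose it.

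*Serpina3f*, the gene next to it, was at 11.35, 16.3 and 20.53 FPKM in KO hosts and at 1.78, 2.71 and 5.89 FPKM in WT hosts. Here too the groups did not overlap, and the log2 fold-change was 2.33 (SE 0.25), or 5.03-fold. The WT tumor of replicate 1 was the highest WT tumor for both genes, and without it the log2 fold-changes were 2.93 for *Serpina3g* and 2.59 for *Serpina3f*. FPKM ranges that did not overlap between the KO and WT tumors were found for 1.42% of 13816 genes.

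The other members differed by less, and their groups overlapped. *Serpina3i* was at 11.96, 16.3 and 18.49 FPKM in KO hosts and at 4.22, 7.21 and 12.89 FPKM in WT hosts (log2 fold-change 1.22, SE 0.25). The overlap came from 1 WT tumor, replicate 6, the only one above the lowest KO tumor. *Serpina3h*, the pseudogene, was at 20.93, 26.0 and 44.57 FPKM in KO and at 12.25, 15.8 and 22.60 FPKM in WT hosts (log2 fold-change 0.93, SE 0.21).

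*Serpina3n*, the most abundant of the 6 in every group, was at 56.28, 87.5 and 105.29 FPKM in KO hosts and at 26.45, 56.9 and 78.69 FPKM in WT hosts. Its log2 fold-change was 0.69 (SE 0.23), and the groups overlapped. *Serpina3m* reached no more than 9 counts and 0.85 FPKM in any tumor and had too few counts to be fitted. With an FDR of 0.05 and a 2-fold limit, 1.06% of the 13830 genes fitted passed in tumors. Of the 5 members fitted, 3 lay past those limits (*Serpina3g*, *Serpina3f* and *Serpina3i*), a count that was fixed in part by how the genes were chosen and from which nothing is read. The median log2 fold-change of the 5 fitted members was 1.22, beside -0.01 over all genes fitted.

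**Figure D1:**
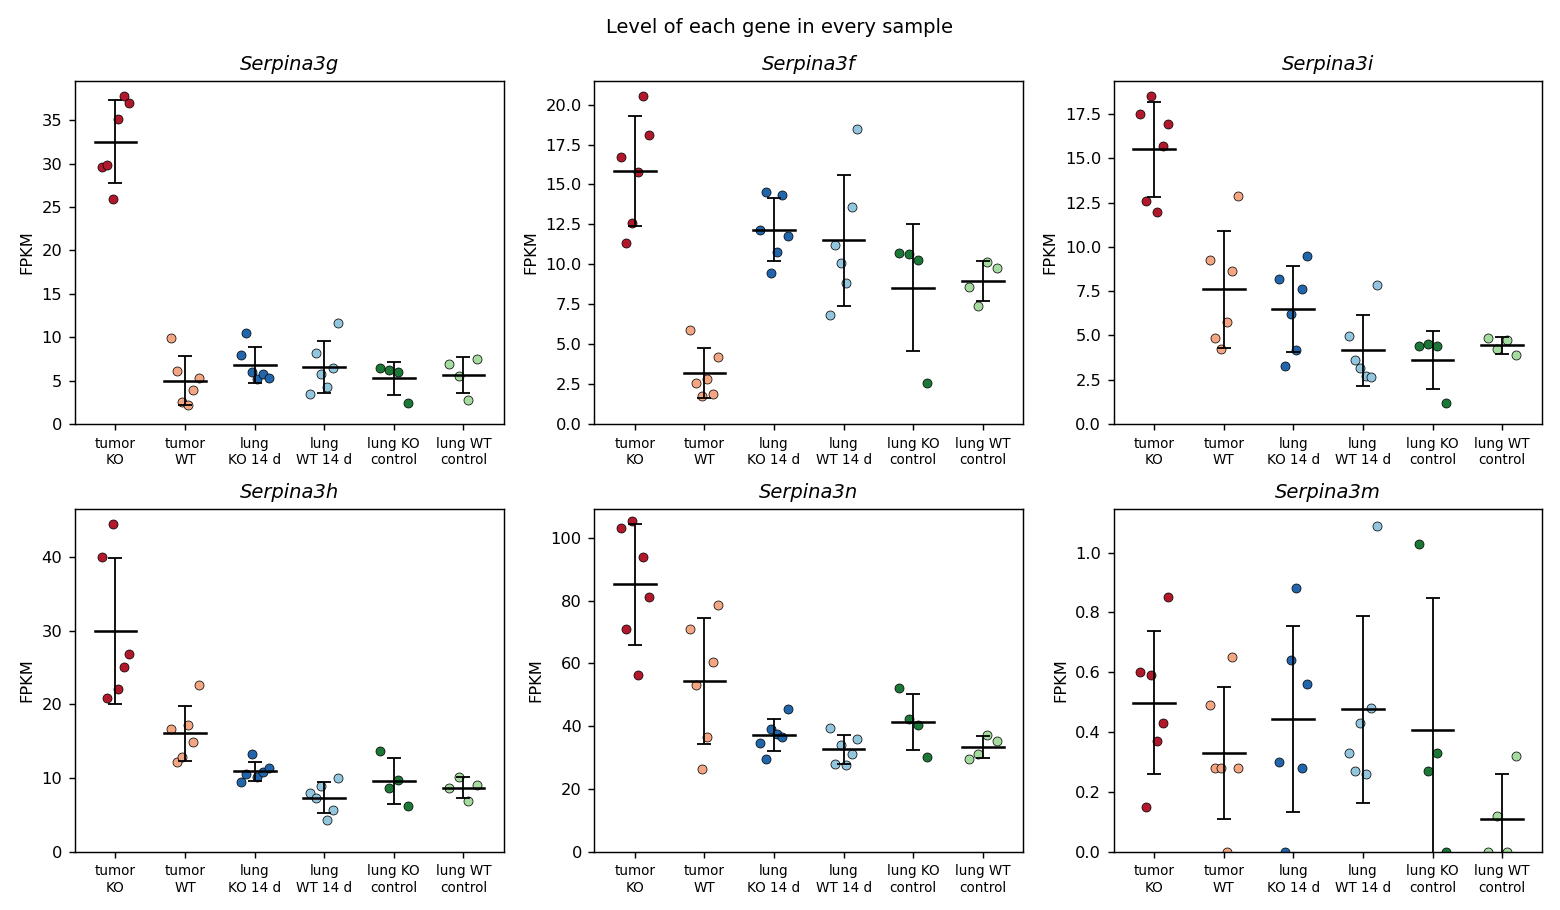
FPKM (vertical axis, a different scale in each panel) of the 6 genes in the 2 tumor and 4 lung groups. Points are samples, long bars are group means and whiskers are SD (cut at 0 for Serpina3m); the KO tumors, in dark red, lie above every other sample for Serpina3g, between 25.91 and 37.73 FPKM.

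Of the 5 other *Serpina3* genes of the cluster, *Serpina3a* had no count in any tumor, and *Serpina3b*, *Serpina3j* and *Serpina3k* stayed at or below 0.77 FPKM in all tumors. Of these 5 only *Serpina3c* had counts enough to be fitted, at 2.67 ± 1.45 FPKM in KO and 1.56 ± 0.75 FPKM in WT tumors (log2 fold-change 0.82, SE 0.40, FDR = 0.36 by edgeR). The flanking serpins *Serpina5*, *Serpina9*, *Serpina11* and *Serpina12* reached at most 1.13 FPKM in any tumor. *Gsc*, a homeobox gene beyond *Serpina3n*, was above 0 in 3 of 32 samples, at no more than 0.21 FPKM. *Serpina3j*, *Serpina3k* and *Serpina3m*, which lie between *Serpina3i* and *Serpina3n*, thus had few or no reads in either group.

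Genes of pathways known to induce acute-phase or immune serpins were followed in the same tumors. Of 13 genes of the interferon-γ response, 12 were fitted in tumors and all 12 passed an FDR of 0.05 and 2-fold, higher in KO hosts, at a median log2 fold-change of 1.54. Among them were *Psmb9*, a subunit of the immunoproteasome (log2 fold-change 1.66, FDR = 4.33e-05 by edgeR), and *Irf1*, a transcription factor (1.16, FDR = 4.33e-05). *Psmb8*, a further immunoproteasome subunit (1.32, FDR = 8.87e-05), and *Tap1*, a peptide transporter for antigen presentation (1.52, FDR = 8.89e-05), also rose. *Ifng*, the cytokine itself, had too few counts to be fitted and was at 0.43 to 2.60 FPKM in KO and 0 to 0.53 FPKM in WT tumors. The IL-6/STAT3 and acute-phase list, with 13 genes fitted, had 1 gene past both limits, *Saa3* (2.26, FDR = 0.0032 by edgeR), a serum amyloid. *Socs3*, a feedback inhibitor induced by STAT3, rose past the FDR but not the fold limit (0.73, FDR = 0.0053 by edgeR), and 12 of the 13 values were above 0, with a median of 0.56. None of 10 glucocorticoid target genes passed (median 0.11).

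Few genes of proteases that serpins of this cluster could inhibit passed both limits. Of 10 cysteine cathepsins, *Ctss* alone passed both, at a log2 fold-change of 1.00 (FDR = 0.010 by edgeR); *Ctsz* rose past the FDR alone (0.43, FDR = 0.011), and the median was 0.23. No granule serine protease of 6 fitted passed (median 0.53). Of 14 serpins of other clades, *Serpinb2*, an inhibitor of urokinase, rose (1.57, FDR = 0.025) and *Serpine2*, an inhibitor of thrombin and urokinase, fell past the FDR alone (-0.83, FDR = 0.016 by edgeR), with a median of 0.07.

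Cell type markers also differed between the tumor groups. The summed level of 6 T cell markers was 22.1 to 39.7 FPKM in KO and 7.19 to 26.6 FPKM in WT tumors, and 2 of the 6 rose, *Cd3g* (1.31, FDR = 0.039 by edgeR) and *Cd3d* (1.46, FDR = 0.039). The 6 macrophage markers summed to 447.4 to 722.5 FPKM in KO and 246.4 to 539.4 FPKM in WT tumors, and none passed both limits; *C1qb*, a complement subunit, rose past the FDR alone (0.73, FDR = 0.037 by edgeR). No marker of fibroblasts, epithelium, neutrophils or NK cells passed; the neutrophil marker *Ly6g* was at 0 in all tumors. Their part in the values of the *Serpina3* genes was not tested. In whole tissue a change in the number of cells of a type and a change in RNA per cell cannot be told apart.

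**Figure D2:**
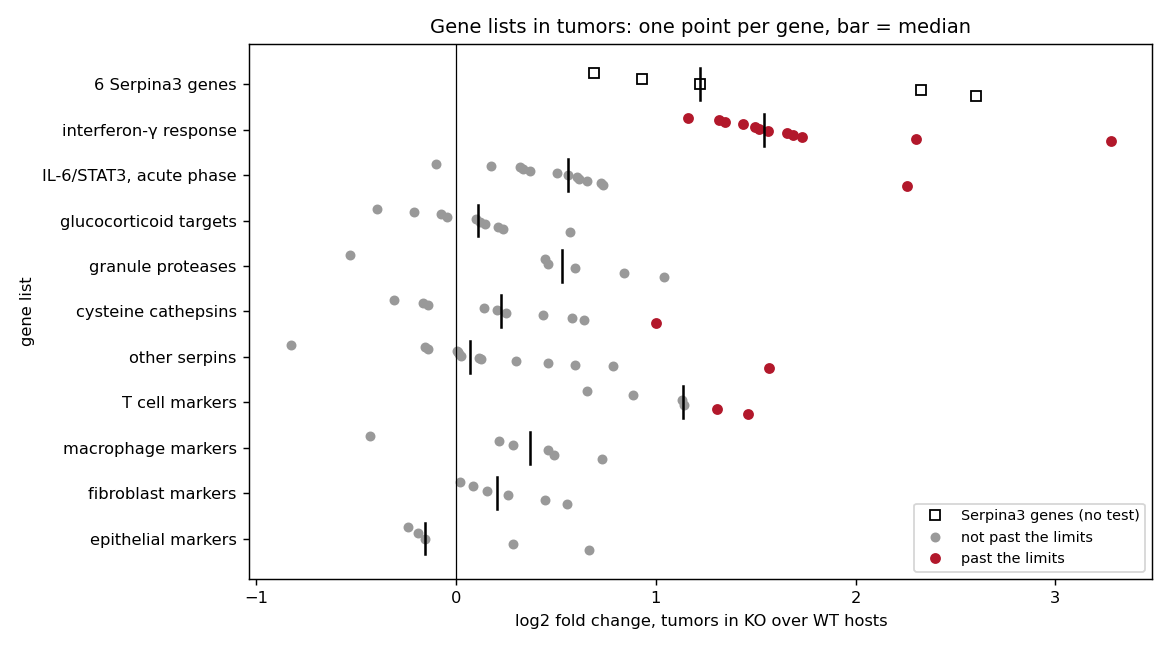
Log2 fold-change of tumors in KO over WT hosts (horizontal axis) for the Serpina3 genes (open squares, no test) and 10 gene lists (circles, red past FDR 0.05 and 2-fold). Bars are medians; all 12 interferon-γ response genes are red, at a median of 1.54.

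In the lung the ranges of *Serpina3g*, and those of *Serpina3f*, overlapped between all 4 groups. *Serpina3g* was at 5.14, 5.83 and 10.45 FPKM (lowest, median and highest) in KO and at 3.44, 6.08 and 11.61 FPKM in WT lungs 14 days after the graft. In control lungs it was at 6.43, 6.21, 6.05 and 2.46 FPKM in KO replicates 1 to 4 and at 6.93, 5.51, 2.76 and 7.47 FPKM in WT replicates 1 to 4. *Serpina3f* was at 9.46, 11.96 and 14.55 FPKM in KO and 6.82, 10.7 and 18.46 FPKM in WT lungs at 14 days. In control lungs *Serpina3f* was at 10.71, 10.62, 10.28 and 2.57 FPKM in KO and at 8.58, 7.39, 10.15 and 9.79 FPKM in WT, so that KO replicate 4 stood alone. Over the other 3 KO control lungs the mean was 10.5 ± 0.23 FPKM for *Serpina3f* and 6.23 ± 0.19 FPKM for *Serpina3g*.

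Whether host *Clic4* changes these genes in the pre-metastatic lung was asked in the 14-day lungs, where edgeR's quasi-likelihood test called 0 of the 5 fitted members at an FDR of 0.25 and 1.5-fold. In this comparison 0.212% of 16029 genes were called; 2 members had an unadjusted p under 0.05, as had 8.34% of genes, and DESeq2 called 0 members. The log2 fold-change (KO over WT) was 0.07 for *Serpina3g* (95% interval -0.44 to 0.59; FDR = 0.97) and 0.09 for *Serpina3f* (-0.39 to 0.57; FDR = 0.96). *Serpina3h* was at 9.41, 10.7 and 13.25 FPKM in KO and 4.25, 7.63 and 9.96 FPKM in WT lungs, a log2 fold-change of 0.56 (0.20 to 0.93) with an unadjusted p = 0.0044 and FDR = 0.32 by edgeR. DESeq2 gave it FDR = 0.19, past the FDR limit, at a log2 fold-change of 0.57, under the fold limit. *Serpina3i* was at 3.25, 6.91 and 9.48 FPKM in KO and 2.65, 3.39 and 7.87 FPKM in WT lungs, a log2 fold-change of 0.62 (0.06 to 1.18; FDR = 0.55 by edgeR). Without the WT lung of replicate 6, *Serpina3h* was called (0.66, FDR = 0.20 by edgeR) and *Serpina3i* was at 0.88 with FDR = 0.26. *Serpina3g* and *Serpina3f* were then at 0.30 and 0.27 (FDR = 0.77 and 0.79 by edgeR). Over all samples left out in turn the FDR of *Serpina3h* ran from 0.20 to 0.51. *Serpina3n*, at 29.60, 37.1 and 45.38 FPKM in KO and 27.63, 32.6 and 39.40 FPKM in WT lungs, had a log2 fold-change of 0.19 (-0.05 to 0.43; FDR = 0.72 by edgeR).

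In control lungs 0 of 5 members were called, beside 0.231% of all genes; 1 had an unadjusted p under 0.05, as had 11.6% of genes, and DESeq2 called 0 members. *Serpina3n* was at 52.04, 42.36, 40.27 and 30.21 FPKM in KO and 29.57, 31.08, 37.05 and 35.18 FPKM in WT replicates 1 to 4. Its log2 fold-change was 0.31 (0.02 to 0.59), with FDR = 0.40 by edgeR and groups that overlapped through KO replicate 4. Without that lung it was 0.42 with FDR = 0.34. *Serpina3f*, *Serpina3g* and *Serpina3i* had log2 fold-changes between -0.17 and -0.07, which became 0.22, 0.09 and 0.01 without KO replicate 4.

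The presence of a tumor elsewhere in the mouse was compared by 14-day against control lungs within each genotype. In WT hosts 0 of 5 members were called, beside 0.574% of all genes, and in KO hosts 0 of 5, beside 0.262%; in both cases DESeq2 called 0 members and 0 members had an unadjusted p under 0.05, which 11.8% of genes had in WT and 8.64% in KO hosts. The largest fitted differences were in KO hosts, 0.58 for *Serpina3i* (-0.05 to 1.22; FDR = 0.62 by edgeR) and 0.52 for *Serpina3f* (-0.04 to 1.07; FDR = 0.62). Without KO control replicate 4 they were 0.41 and 0.23. Without the 14-day WT lung of replicate 6, which shares the fit, they stayed at 0.58 and 0.52. Their unadjusted p were then 0.044 and 0.048 by edgeR (FDR = 0.55 and 0.56). *Serpina3n* was at -0.14 in KO and -0.02 in WT hosts. Without KO control replicate 4 its value in KO hosts was -0.25, with an unadjusted p = 0.049 and FDR = 0.68 by edgeR. The median over the 5 fitted members was 0.39 in KO and -0.02 in WT hosts, beside 0.00 over all genes in both. With the counts of the 6 members summed to 1 row before the fit, the log2 fold-change of the sum was 0.06 in KO and 0.05 in WT hosts. Without KO control replicate 4 the median of the 5 in KO hosts was 0.21. The neutrophil markers summed to 55.7 to 802.8 FPKM in 14-day lungs and 68.6 to 181.2 FPKM in control lungs, and 3 of 5 fitted passed in WT hosts (*Cxcr2*, *S100a8*, *S100a9*) and 2 in KO hosts (*Csf3r*, *Cxcr2*). None of 10 fitted interferon-γ response genes passed in either genotype (median 0.27 in WT and 0.34 in KO hosts). Of other listed genes, *Col1a1*, a fibroblast marker, was lower in WT hosts (-0.73, FDR = 0.16 by edgeR) and *Serpina10* higher in KO hosts (1.05, FDR = 0.13). In KO against WT lungs *Col1a1* was called at 14 days (0.65, FDR = 0.205 by edgeR) and *Prf1*, an NK cell marker, in controls (-1.01, FDR = 0.23). The difference between genotypes in the response to the graft, tested as an interaction at an FDR of 0.25, called 0 of 5 members, beside 0.0499% of all genes, with 0 called by DESeq2 and 0 at an unadjusted p under 0.05, which 8.53% of genes had. The largest was *Serpina3i* at 0.78 (-0.12 to 1.68; FDR = 0.65 by edgeR). It was 0.61 (FDR = 0.79) without KO control replicate 4 and 1.04 (FDR = 0.51) without the 14-day WT lung of replicate 6. *Serpina3f* and *Serpina3g*, at 0.16 and 0.17, were at -0.13 and -0.01 without that control lung, and at 0.34 and 0.39 without that WT lung.

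Tumor and lung were then set side by side within WT hosts at 14 days. The WT tumors had entered the comparison that chose the genes, so the values are a description with no test. *Serpina3f* was at 1.78 to 5.89 FPKM in tumor and at 6.82 to 18.46 FPKM in lung, with no overlap and a log2 fold-change (tumor over lung) of -1.77 (SE 0.25). *Serpina3h* was at 12.25 to 22.60 FPKM in tumor and at 4.25 to 9.96 FPKM in lung, also with no overlap (1.16, SE 0.21). Of the 5 members fitted, these 2 lay past an FDR of 0.05 and 2-fold, as did 38.1% of 16115 genes, and 4 lay past the FDR alone, as did 75.5%. Ranges that do not overlap were found for 50.1% of genes, and nothing is read from these counts. The log2 fold-change was 0.87 for *Serpina3i* and 0.78 for *Serpina3n*. *Serpina3g* was at 2.20 to 9.93 FPKM in tumor and 3.44 to 11.61 FPKM in lung, a log2 fold-change of -0.19 (SE 0.27). Without the WT tumor of replicate 1 it was -0.55. Without the WT lung of replicate 6, *Serpina3i* was at 1.10, past the 2-fold limit, and *Serpina3g* was at -0.0006.

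The same tissues in KO hosts are also given as values with no test. The mean FPKM of *Serpina3g* was 4.82 times as high in tumors as in 14-day lungs of KO hosts, and the groups did not overlap, while in WT hosts the ratio was 0.76. For *Serpina3f* the ratio was 1.3 in KO hosts, where the groups overlapped, and 0.28 in WT hosts. For the other 3 fitted members the mean was higher in tumors in both hosts. The ratio was 2.74 in KO and 2.19 in WT hosts for *Serpina3h*, 2.39 and 1.83 for *Serpina3i*, and 2.29 and 1.67 for *Serpina3n*. In KO hosts the groups did not overlap for any of these 3, and in WT hosts they overlapped for *Serpina3i* and *Serpina3n*. Ranges of KO tumors and KO 14-day lungs did not overlap for 48.4% of genes.

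**Figure D3:**
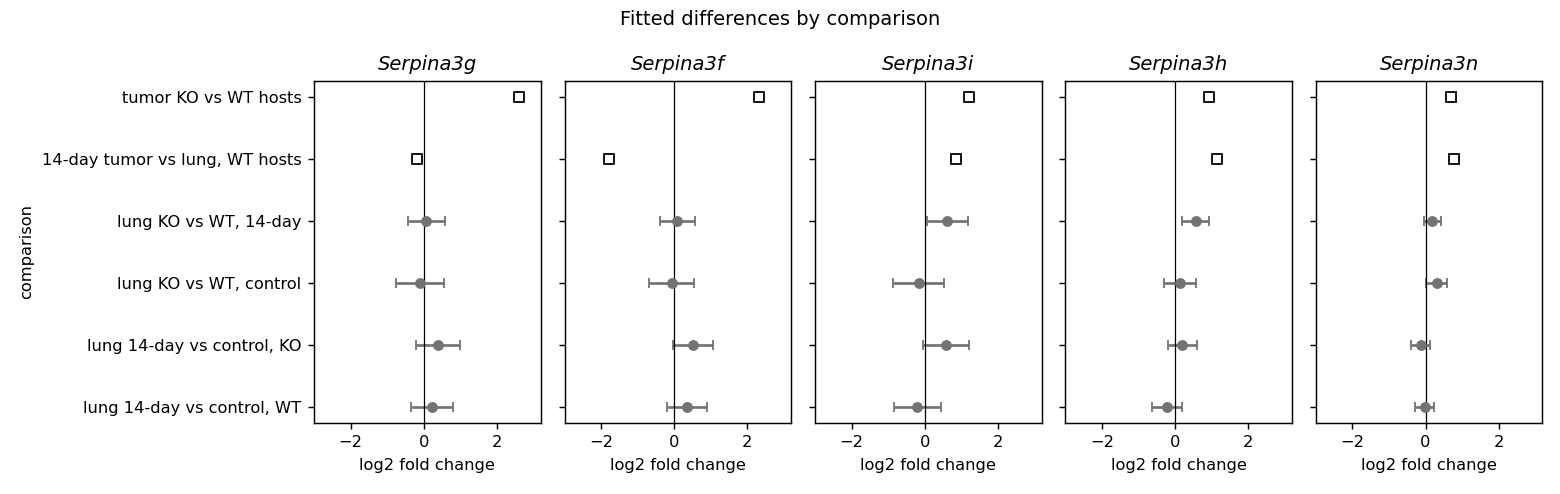
Log2 fold-change (horizontal axis) of 5 Serpina3 genes in 6 comparisons, the first group of each name over the second. Open squares mark the 2 comparisons that hold tumors used to choose the genes, shown without a test. Circles with 95% intervals are the 4 lung comparisons, in which no gene was called.

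KO tumors entered the choice of the genes, so nothing is read from the count of members highest there. For each of the 5 fitted members the KO tumors had the highest mean of the 6 groups. For *Serpina3g* the order below them was KO lung at 14 days (6.75 FPKM), WT lung at 14 days (6.59), WT control lung (5.67), KO control lung (5.29) and WT tumor (5.00), and all of these neighbours overlapped, while KO tumors and KO lungs did not. For *Serpina3f* the order ran from KO tumor (15.8 FPKM) through KO lung (12.2), WT lung (11.5), WT control lung (8.98) and KO control lung (8.55) to WT tumor (3.19), with every pair of neighbours overlapping. The last overlap rested on KO control replicate 4: the other 3 KO control lungs, at 10.28 to 10.71 FPKM, lay above all WT tumors, and their mean of 10.5 FPKM lay above that of WT control lungs. For *Serpina3g* too, their mean of 6.23 FPKM lay above the 5.67 FPKM of WT control lungs. For *Serpina3h*, *Serpina3i* and *Serpina3n* WT tumors came second, at 16.1, 7.61 and 54.4 FPKM, and overlapped the KO tumors above them. *Serpina3m* was highest at 1.09 FPKM, in a WT lung at 14 days, and no order could be read from 0 to 9 counts per sample.

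The balance between *Serpina3g* and *Serpina3f* differed between tissues. In all 20 lungs *Serpina3f* had the higher FPKM. In all 6 KO tumors and in 5 of 6 WT tumors *Serpina3g* had the higher FPKM. The ratio of *Serpina3g* to *Serpina3f* was 2.10 ± 0.31 in KO tumors and 1.60 ± 0.56 in WT tumors, and its group means lay between 0.55 and 0.68 in the lungs. The WT tumors (0.78 to 2.33) and the WT lungs at 14 days (0.47 to 0.72) did not overlap in this ratio. Control lungs reached 0.81 in WT and 0.96 in KO hosts and overlapped the WT tumors, as did the KO tumors (1.77 to 2.63).

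**Figure D4:**
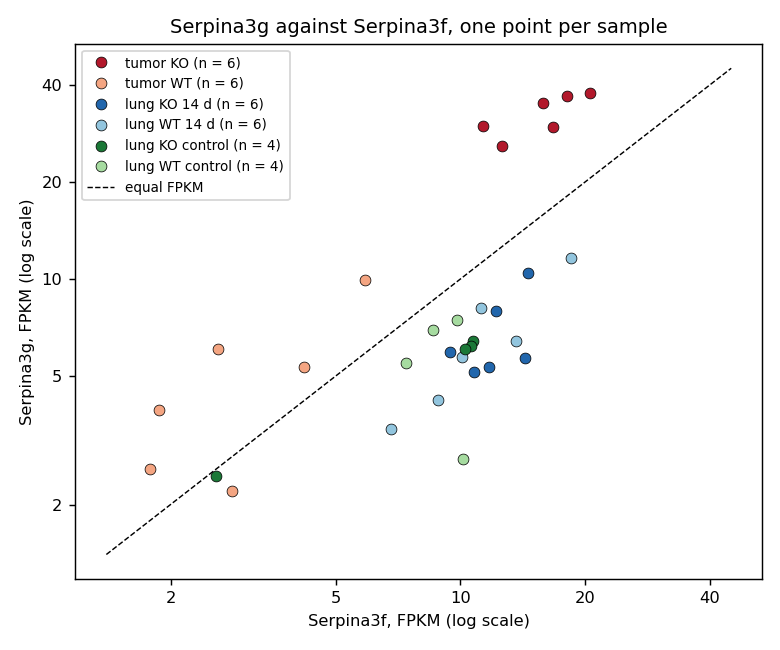
FPKM of Serpina3g (vertical) against Serpina3f (horizontal), both on log scales, in 32 samples. All 20 lungs lie below the line of equal FPKM, and 11 of 12 tumors above it.

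*Serpina3n* had the largest mean share of the summed FPKM of the 6 genes in every group, from 47.1% ± 4.09 in KO tumors to 61.9% ± 5.13 in WT tumors. The sum was 179.4 ± 29.4 FPKM in KO tumors (141.6 to 207.4), 86.6 ± 28.8 FPKM in WT tumors (48.2 to 124.0), and 61.1 to 73.9 FPKM on average in the lung groups. The share of *Serpina3g* was 18.7% ± 4.52 in KO and 5.63% ± 2.11 in WT tumors, without overlap, and that of *Serpina3f* was 8.94% ± 1.96 and 3.67% ± 1.06. The share of *Serpina3i* was 8.64% ± 0.44 and 8.66% ± 1.45, close to equal, since *Serpina3i* and the sum were higher by nearly the same factor. In the control lung of KO replicate 4, *Serpina3n* made up 70.9%, the highest share of any sample.

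**Figure D5:**
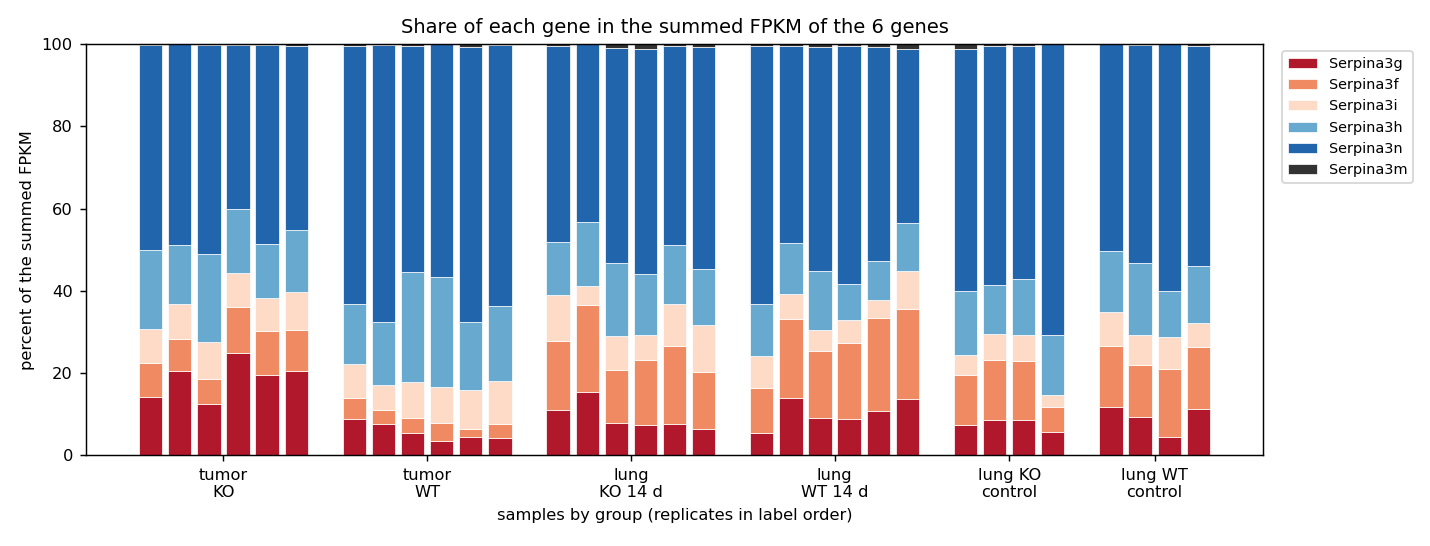
Share of each of the 6 genes in their summed FPKM (percent, vertical axis), 1 bar per sample, grouped by tissue and genotype. Serpina3n is the largest share in every group, and Serpina3g takes 12.5% to 24.8% in KO tumors against 3.42% to 8.77% in WT tumors.

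Within groups the members did not all vary together. After the group means of log2(CPM + 1) were subtracted, *Serpina3f* and *Serpina3g* correlated at r = 0.72 (rho 0.64) over 20 lungs and 0.75 (rho 0.73) over 12 tumors. Without the 2 samples farthest from the median of *Serpina3f* these were 0.60 and 0.42, so the tumor value rested in good part on WT replicates 1 and 3. *Serpina3i* and *Serpina3n* correlated at 0.73 (rho 0.62) in lungs and 0.88 (rho 0.92) in tumors, and at 0.74 and 0.80 without the 2 farthest samples. *Serpina3h* went with *Serpina3i* at 0.62 and 0.80. *Serpina3g* and *Serpina3n*, in contrast, were at -0.10 (rho -0.19) in lungs and 0.58 (rho 0.51) in tumors; without KO control replicate 4 the lung value was -0.41. These are descriptions over samples that share libraries and depth, and neighbouring copies share some reads.

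The 5 genes most like each of *Serpina3g*, *Serpina3f* and *Serpina3n* in this measure are given as a description. Lists this short cannot show how much the members have in common. *Serpina3g* itself was only at place 21 for *Serpina3f* in lungs and at place 46 in tumors. In lungs *Serpina3g* was most like *Timm21* (r = 0.88), *Ms4a6d* (0.83), *Wdr11* (0.82), *Naip6* (0.81) and *Ms4a6c* (0.79), and *Serpina3f* was most like *Naip6* (0.84), *Mrps22* (0.82), *Gm26857* (0.78), *Sema4d* (0.78) and *Gramd1b* (0.77), so that *Naip6* was on both lists. *Serpina3n* was most like *Adra1a* (0.93), an α1 adrenergic receptor, then *Nhp2* (0.81), *Chst3* (0.80), *Gas7* (0.79) and *Abca13* (0.77). In tumors the nearest to *Serpina3g* were *Pld4* (0.91), *Fgl2* (0.91), *Rcn3* (0.89), *Taldo1* (0.89) and *Cxcl9* (0.88), a chemokine induced by interferon-γ. The nearest to *Serpina3f* were *Pdcd1lg2* (0.89), which encodes the checkpoint ligand PD-L2, *0610010K14Rik* (0.89), *Bag1* (0.87), *Gm15446* (0.86) and *Gbp2b* (0.84). The nearest to *Serpina3n* were *Gda* (0.94), *Pcdh7* (0.94), *Sdk1* (0.93), *Tnfaip6* (0.93) and *Nfasc* (0.93). No gene was on more than 1 of the 3 tumor lists. These r values were picked as the highest of 13829 genes in tumors and 16028 in lungs.

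The members were set against the summed FPKM of the gene lists in the same way, with group means subtracted from log2(FPKM + 1). *Serpina3g* had r = 0.57 with the interferon-γ response in lungs and 0.59 in tumors, and *Serpina3n* had -0.19 and 0.02. *Serpina3f* was at 0.55 and 0.57, *Serpina3i* at -0.22 and 0.01, and *Serpina3h* at 0.025 and -0.46. With the acute-phase list the values were 0.02 and 0.65 for *Serpina3g* and 0.61 and 0.89 for *Serpina3n*. The macrophage markers went with *Serpina3g* at 0.74 in lungs and 0.81 in tumors, and with *Serpina3n* at -0.10 and 0.34. In tumors other markers did so too: *Serpina3g* was at 0.72 with fibroblast and 0.66 with T cell markers, above its value with the interferon-γ response, and *Serpina3n* was at 0.78 with fibroblast and 0.65 with neutrophil markers. In lungs the fibroblast and T cell values of *Serpina3g* were 0.04 and 0.16, and *Serpina3n* was at -0.46 with fibroblast and 0.50 with neutrophil markers. Without the 2 samples farthest for each gene, *Serpina3g* was at 0.55 and 0.39 with the interferon-γ response and at 0.71 and 0.63 with the macrophage markers, with which *Serpina3n* was at -0.38 and 0.56. In tumors it was then at 0.83 with T cell and 0.45 with fibroblast markers. *Serpina3n* was at 0.53 in lungs and 0.75 in tumors with the acute-phase list without the 2 farthest samples. The r values rest on 20 lungs or 12 tumors and share the depth and composition of each library.

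The genes of the cluster share part of their sequence. Of all runs of 50 bases in the longest annotated transcript of a member, 6.90% also occurred in another gene for *Serpina3n*, 10.7% for *Serpina3f*, 15.4% for *Serpina3i*, 16.0% for *Serpina3g* and 24.4% for *Serpina3h*. For *Serpina3h* most of it was shared with *Serpina3i* (18.3%), and for *Serpina3m* (19.1%) with *Serpina3k* (16.0%). Of runs of 100 bases, 6.09% were shared for *Serpina3m*, 4.64% for *Serpina3g*, 4.21% for *Serpina3h*, 3.58% for *Serpina3f*, 2.33% for *Serpina3i* and 0.20% for *Serpina3n*. At both lengths the share of *Serpina3n* was the lowest. A part of the likeness between neighbours may not be separable from reads divided between them.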

How the data were processed

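RNA of 12 tumors and 20 lungs was prepared by the submitters with a stranded mRNA kit and sequenced in pairs. Per the labels and the study's methods, the authors aligned reads to mm10 with STAR and quantified genes with RSEM. The deposited tables hold RSEM expected counts (as whole numbers) and FPKM per gene, and the FPKM were normalised by the authors for transcript length and library size.

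Counts were tested with edgeR 4.0.16 (quasi-likelihood F-test, TMM scaling, default filter on low counts, Benjamini-Hochberg FDR over all genes fitted), with tumors, lungs and 14-day samples of both genotypes as separate fits. Genes were called at FDR 0.05 and 2-fold where tumors were compared, at FDR 0.25 and 1.5-fold in lungs, and at FDR 0.25 for the interaction. The scripts were tested on simulated counts. The labels do not say which tumor and lung came from one mouse, and p-values measure the spread between these samples. DESeq2 1.42.0, other scaling and filters, a replicate block, GC offsets and leaving out each sample were alternatives.

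Named were the 6 members, neighbours within 250 kb, and the 5 genes most correlated with *Serpina3f*, *Serpina3g* and *Serpina3n*. From the lists, up to 4 genes per list and comparison with the smallest p past the limits were named. None was named for tumor against lung. List genes named at 0 or for too few counts were named for that reason. *Socs3*, *Ctsz*, *Serpine2* and *C1qb*, which passed the FDR but not the fold limit in tumors, were named after their values were seen. The members and lists were chosen with earlier results of these data known. The members were not tested in either comparison that holds tumors, since tumors of both genotypes entered their choice. The exon of *Clic4* removed in KO mice leaves reads from the rest of the gene. Depth, at 4446323 to 8318711 counts per sample, limits *Serpina3m* most.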

Additional observations from a re-analysis of the deposited data

Results flagged for a closer look

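Of 36 sets of FPKM values (6 genes in 6 groups), 4 held a sample far from the rest of its group by Dixon's test, at a level that chance alone gives in about 1 in 20 groups. In the control lungs of KO hosts, replicate 4 was the lowest for 3 genes: *Serpina3f* at 2.57 FPKM against 10.28 to 10.71 in the other 3, *Serpina3g* at 2.46 against 6.05 to 6.43, and *Serpina3i* at 1.17 against 4.41 to 4.53. The same lung had the lowest summed interferon-γ response genes of all 20 lungs, at 184.6 FPKM, and summed T cell markers of 27.0 FPKM, also the lowest of the lungs. In WT lungs at 14 days, replicate 6 had *Serpina3m* at 1.09 FPKM against 0.26 to 0.48 in the other 5, a value of 9 counts. It also had the highest neutrophil marker sum of its group, 769.0 FPKM. The part of these cell markers in the *Serpina3* values was not tested.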

How the results depend on the processing

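Over the lung comparisons and the interaction, 0 members were called under every alternative run (DESeq2, RLE size factors, no filter on low counts, GC offsets, a replicate block, FDR 0.05 without a fold limit, and, except for the interaction, only the compared groups), and with samples left out in turn the count stayed at 0, except for 0 to 1 in the 14-day KO against WT lungs. In tumors of KO against WT hosts the number of members past the limits was 3 to 4. That count was fixed in part by how the genes were chosen, and nothing is read from it. In the main fit 1.06% of 13830 genes passed. The log2 fold-change of *Serpina3g*, given as a description, stayed between 2.48 and 2.93 with samples left out. In 14-day tumor against lung in WT hosts, a comparison with no test of the members, 4 lay past FDR 0.05 without a fold limit, and 2 to 3 lay past both limits with samples left out. With the 6 members summed to 1 row, the log2 fold-change was 0.054 in WT lungs at 14 days against control, 0.064 in KO lungs and 0.20 in control lungs of KO against WT, and in the first and last of these the sign was opposite to that of the members' median; the cause was not tested. With GC offsets *Serpina3n* turned to 0.013 in WT lungs.

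The signs of small lung values turned with 1 sample left out. In 14-day against control WT lungs the ranges were -0.0001 to 0.34 for *Serpina3g* and -0.09 to 0.028 for *Serpina3n*. In KO against WT lungs at 14 days they were -0.023 to 0.27 for *Serpina3f* and -0.078 to 0.30 for *Serpina3g*. In control lungs they were -0.19 to 0.22 for *Serpina3f*, -0.28 to 0.088 for *Serpina3g*, -0.078 to 0.29 for *Serpina3h* and -0.40 to 0.0064 for *Serpina3i*. For the interaction they were -0.13 to 0.34, -0.013 to 0.39 and -0.23 to 0.017 for *Serpina3f*, *Serpina3g* and *Serpina3n*. None of these was called in any of them.

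The members with their highest mean in KO tumors numbered 6 by FPKM (*Serpina3m* by a margin within its spread), 6 by TMM-scaled CPM and 5 to 6 with samples left out. This count was fixed in part by how the genes were chosen. The share over all genes was not computed, and nothing is read from the count. Same-numbered samples did not correlate above 0.1 in every pair of any 2 groups (r of -0.29 to 0.25), so the numbers were not taken as pairs. For KO tumors and KO 14-day lungs all 6 r were above 0 (0.047 to 0.191) and 5 of 6 were best with their own number, a hint from the data and not from the labels. With a replicate block 130 genes were called in tumors in place of 146, 152 in place of 92 in WT lungs and 129 in place of 42 in KO lungs, and 2 members in tumor against lung as before. Other counts over all genes that moved by more than 1.5 times were 23 with DESeq2, 58 without a filter and 53 with GC offsets in WT lungs at 14 days against control, and 24 with GC offsets in KO lungs. For KO against WT lungs at 14 days it was 18 with only the compared groups, in place of 34. In control lungs 6, 7, 5 and 246 genes were called with DESeq2, without a filter, with GC offsets and with only the compared groups, in place of 37. For the interaction DESeq2 called 184 and GC offsets and the block 1 each, in place of 8. With FDR 0.05 and no fold limit 347 genes passed in tumors, 12165 in tumor against lung, 0 and 6 in WT and KO lungs at 14 days against control, 15 and 3 in KO against WT lungs at 14 days and in controls, and 1 for the interaction. At this depth *Serpina3m* could not be compared.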
